A study of Mus musculus with 10 samples.

Results

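Lipolysis, the release of fatty acids from stored triacylglycerol, is described here through 6 genes: Pnpla2, Lipe and Mgll for the 3 neutral lipases, Abhd5 for the coactivator of the first, Pde3b for the phosphodiesterase that restrains the pathway, and Lipa for the lipase of the lysosome. They were taken by symbol, through their NCBI gene identifiers, from a count table of 18103 genes, and all 6 were among the 13149 genes that passed the count filter. Levels are in CPM, the read counts of a gene scaled to a common library total with the TMM method, written for replicates 1 and 2 or as mean ± SD with n = 2. The words rose and fell are kept for genes with a Benjamini-Hochberg adjusted p under 0.05 over all genes tested in edgeR's quasi-likelihood test. The error given after a log2 fold change is its standard error.

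The data were bulk RNA sequencing of 10 libraries from mouse breast cancer cell lines, with 2 independent experiments in each of 5 groups, all harvested on day 7. Py2T-LT cells (long-term Py2T cells) were sampled as controls, with a MEK inhibitor (MEKi), or with bone morphogenetic protein 2 and the MEK inhibitor (BMP2+MEKi). MTΔECad cells are mesenchymal cells in which E-cadherin was deleted, and that deletion is shared by their control group and their rosiglitazone group. Rosiglitazone is an agonist of the nuclear receptor PPARγ. The sample labels give no dose. As usual amounts the protocol names 2 µM rosiglitazone, BMP2 at 200 ng/ml and PD98059, the MEK inhibitor, at 40 µM, with DMSO medium for control cells. It adds rosiglitazone after BMP2 when cancer cells are differentiated, whereas the Py2T-LT labels name none, so whether the Py2T-LT medium held it is not known here. No group received BMP2 alone and none of the Py2T-LT groups is labelled with rosiglitazone, so line and agent cannot be told apart when responses of the lines are compared.

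Lipolysis in fat cells runs in steps. The product of Pnpla2 (adipose triglyceride lipase), switched on by the product of Abhd5 (CGI-58), removes the first fatty acid from triacylglycerol, hormone-sensitive lipase (Lipe) acts mainly on the diacylglycerol formed, and monoacylglycerol lipase (Mgll) frees the glycerol. Hormones that raise cyclic AMP activate protein kinase A, which phosphorylates hormone-sensitive lipase and the droplet coat protein perilipin 1. Insulin acts against this through the phosphodiesterase PDE3B, which degrades cyclic AMP, whereas lysosomal acid lipase (Lipa) hydrolyses cholesteryl esters and triacylglycerol delivered to lysosomes.

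The libraries held 14659987 to 17249199 counts, so 3 counts were worth at most 0.209 CPM. Replicates correlated across genes at 0.9928 to 0.9948 on the log2 scale. Cdh1, the E-cadherin gene, stood at 2.41 CPM in MTΔECad controls and 33.8 CPM in Py2T-LT controls, with 73 counts in the former. Both lines expressed the mesenchymal filament gene Vim at 2978 CPM or more on average, and Epcam, an epithelial surface gene, at less than 1 CPM. Of the other epithelial markers, Krt8 had 219 and 199 CPM in Py2T-LT and MTΔECad controls, and Krt18 had 389 and 76.7 CPM. Cldn4 had 9.80 and 0.063 CPM, and Ovol1 0 and 0.031 CPM, in the same order.

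The stretches upstream of the annotated starts are shown because Lipe, Pnpla2, Mgll and Abhd5 rose together after rosiglitazone, while Lipa did not pass the test. Each is the 250 bases before a RefSeq gene start on GRCm38.p6, in the direction of the gene. Capitals mark matches to any of the 5 motifs named after them. Entries were found for 5 of the 6 members, in 7 windows. Pde3b had no entry.
Pnpla2 (chr7:141454938-141455187, plus strand): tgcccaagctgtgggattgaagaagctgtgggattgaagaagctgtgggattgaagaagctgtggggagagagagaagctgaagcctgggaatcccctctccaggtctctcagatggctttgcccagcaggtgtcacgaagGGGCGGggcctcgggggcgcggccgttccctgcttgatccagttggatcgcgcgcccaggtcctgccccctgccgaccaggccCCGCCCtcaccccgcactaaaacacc
Lipe (chr7:25390113-25390362, minus strand): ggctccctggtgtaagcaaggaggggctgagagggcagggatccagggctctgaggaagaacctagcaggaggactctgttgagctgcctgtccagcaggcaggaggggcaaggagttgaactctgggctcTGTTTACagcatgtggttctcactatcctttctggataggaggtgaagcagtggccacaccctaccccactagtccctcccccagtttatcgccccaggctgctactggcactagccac
Mgll (chr6:88724162-88724411, plus strand): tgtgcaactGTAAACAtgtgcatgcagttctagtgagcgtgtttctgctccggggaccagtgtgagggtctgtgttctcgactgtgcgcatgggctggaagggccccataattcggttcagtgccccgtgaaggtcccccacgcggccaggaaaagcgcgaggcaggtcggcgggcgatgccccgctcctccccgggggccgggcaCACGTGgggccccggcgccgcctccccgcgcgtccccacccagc
Abhd5 (chr9:122351366-122351615, plus strand): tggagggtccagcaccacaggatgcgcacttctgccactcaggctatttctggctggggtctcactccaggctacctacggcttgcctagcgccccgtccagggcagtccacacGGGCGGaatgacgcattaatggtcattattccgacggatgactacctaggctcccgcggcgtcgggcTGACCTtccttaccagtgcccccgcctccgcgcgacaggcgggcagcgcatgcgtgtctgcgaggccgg
Lipa (chr19:34527475-34527724, minus strand): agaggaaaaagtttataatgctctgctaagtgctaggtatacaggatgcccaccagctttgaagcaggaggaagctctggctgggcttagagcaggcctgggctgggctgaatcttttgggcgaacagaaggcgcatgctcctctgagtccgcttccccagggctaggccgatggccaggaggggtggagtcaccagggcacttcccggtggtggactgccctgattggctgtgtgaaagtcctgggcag

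The motifs were searched on both strands in the same 250 bases of 32851 windows. AGGTCA, the core element of many nuclear receptor sites, was in 14.0% of all windows and in 1 of the 7 member windows, that of Abhd5. TTGCNNAA, as read by C/EBP factors, was in 9.56% of all windows and in 0 of the 7. GTAAACA, the forkhead motif, was in 3.17% of all windows and in 2 of the 7, the printed windows of Lipe and Mgll. CACGTG, an E-box, was in 6.02% of all windows and in 2 of the 7, that of Mgll and a window at another Lipe start (chr7:25395988-25396237, not printed). GGGCGG, the GC box, was in 32.7% of all windows and in 4 of the 7. The Lipa window held none of the 5. A match describes letters only, and the counts per gene do not separate alternative starts.

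Levels of different genes were compared per kilobase of merged exons. In Py2T-LT controls Abhd5 (18.3 CPM per kb) and Pnpla2 (17.8) led, followed by Lipa (10.5), Lipe (2.52), Pde3b (0.974) and Mgll (0.263). MTΔECad controls had Lipa first at 43.6 CPM per kb, then Abhd5 (26.4), Pnpla2 (16.3), Mgll (9.73) and Lipe (3.16). After rosiglitazone Pnpla2 led with 113 CPM per kb, ahead of Abhd5 (45.7), Mgll (40.7), Lipa (40.2) and Lipe (25.7). Per kilobase of the longest transcript, Lipa (70.1) stood above Mgll (51.8) in this last group, and the other places were as given.

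**Figure D1:**
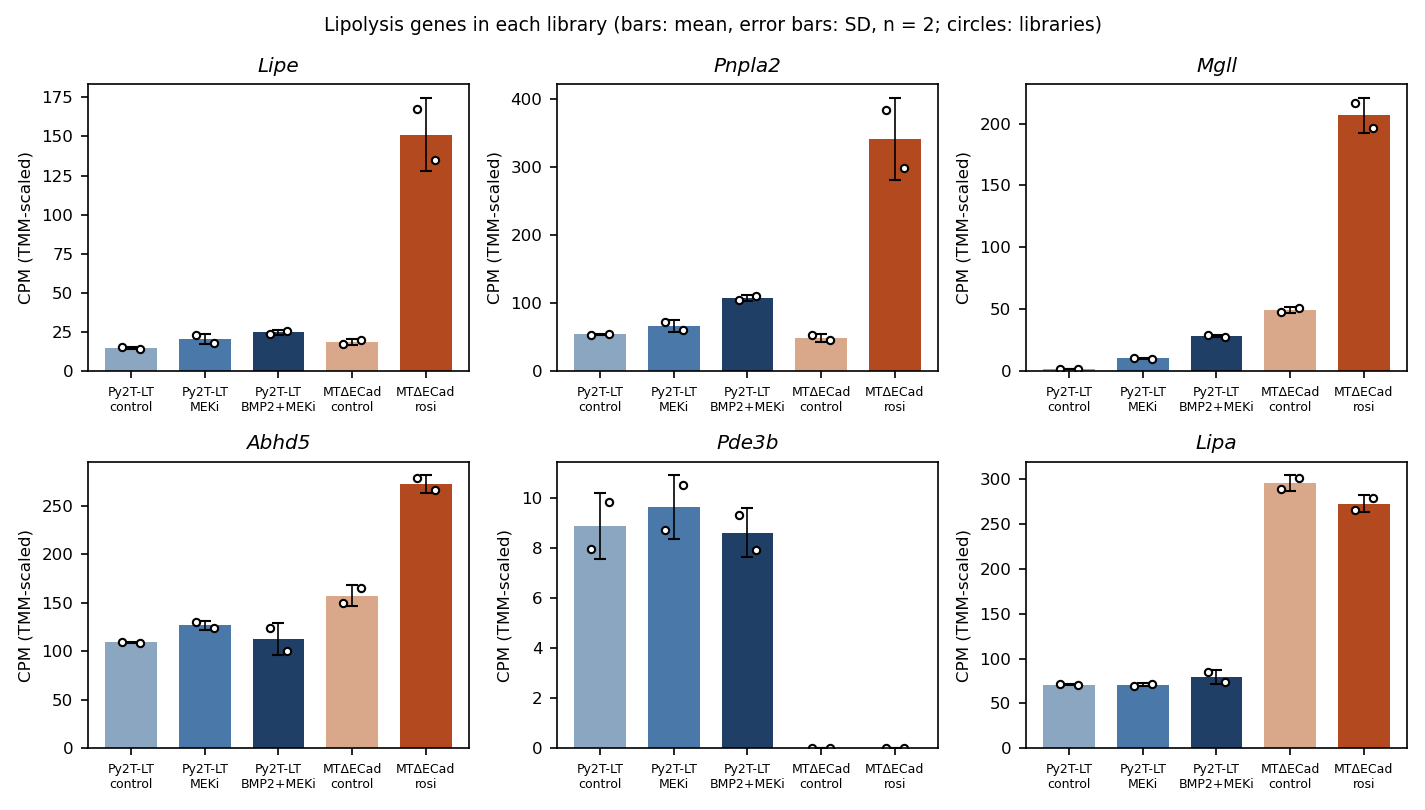
Level of each gene in CPM (vertical axis, linear from 0) in the 5 groups (horizontal axis). Bars are means of 2 libraries, error bars the SD and circles the libraries; Lipe, Pnpla2 and Mgll are highest after rosiglitazone (151, 342 and 207 CPM), Pde3b is at 0 in all 4 MTΔECad libraries and Lipa is high in both MTΔECad groups (296 and 273 CPM).

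Pnpla2 (NCBI Gene 66853, chromosome 7, 141455188 to 141460743, plus strand, GRCm38) encodes the lipase of the first step. Its level was 53.8 and 53.9 CPM in Py2T-LT controls, 72.8 and 60.04 with the MEK inhibitor, and 105 and 111 with BMP2 and the inhibitor. The MTΔECad controls had 53.4 and 45.1 CPM and the rosiglitazone libraries 384 and 299. Both BMP2+MEKi libraries lay above all other Py2T-LT libraries, and both rosiglitazone libraries lay above every other library. Pnpla2 rose by 2.80 ± 0.13 with rosiglitazone (edgeR adjusted p = 4.3e-10) and by 1.00 ± 0.12 with BMP2+MEKi against control (edgeR adjusted p = 9.5e-06). Against the MEK inhibitor alone, BMP2+MEKi raised it by 0.70 ± 0.12 (edgeR adjusted p = 0.00029). The MEK inhibitor alone gave 0.30 ± 0.12, which was not called (edgeR adjusted p = 0.13). It was called with no count filter (edgeR adjusted p = 0.0096) and with a replicate block (edgeR adjusted p = 0.046). P-values without the filter are not on the scale of the main fit. For Pnpla2 with rosiglitazone the log2 fold change stayed at 2.80 while edgeR's adjusted p went from 4.3e-10 to 1.2e-193. In bulk RNA, a higher level may stand for more expressing cells or for more RNA per cell, and these cannot be told apart.

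Lipe (NCBI Gene 16890, chromosome 7, 25379527 to 25398486, minus strand) encodes the hormone-sensitive lipase. It stood at 15.4 and 14.3 CPM in Py2T-LT controls, 22.7 and 18.0 with the MEK inhibitor, and 23.8 and 25.9 with BMP2+MEKi. In MTΔECad cells it was 17.1 and 20.1 CPM in controls and 168 and 135 CPM after rosiglitazone. All treated Py2T-LT libraries were above both controls of that line, while the rosiglitazone libraries stood far above the other 8. The rosiglitazone effect was 3.02 ± 0.13 on the log2 scale, or 8.11-fold (edgeR adjusted p = 9.2e-13). With BMP2+MEKi, Lipe rose by 0.74 ± 0.14 (edgeR adjusted p = 0.00019). MEK inhibition alone raised it by 0.45 ± 0.14 (edgeR adjusted p = 0.03), a call that was lost when MEKi replicate 1 (edgeR adjusted p = 0.31) or replicate 2 of the Py2T-LT controls (edgeR adjusted p = 0.16) was left out. BMP2+MEKi against MEKi gave 0.29 ± 0.13 and was not called (edgeR adjusted p = 0.09), but without MEKi replicate 1 it was 0.46 and passed (edgeR adjusted p = 0.024). The antisense gene 4732471J01Rik overlaps all of Lipe and had 0.268 to 2.27 CPM over the 10 libraries. How reads of the pair were divided is not given in the sources used here.

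Mgll (NCBI Gene 23945, chromosome 6, 88724412 to 88828360, plus strand) encodes the lipase of the last step. Py2T-LT controls had 1.29 and 1.37 CPM, from 21 and 22 counts. Levels of 10.5 and 9.86 CPM were found with the MEK inhibitor and of 29.0 and 27.6 CPM with BMP2+MEKi. MTΔECad controls stood at 47.7 and 51.1 CPM, and the rosiglitazone libraries at 216 and 197 CPM. No 2 groups overlapped, and all 4 steps in the order of the groups passed the test: rosiglitazone, MTΔECad control, BMP2+MEKi, MEKi, Py2T-LT control. Mgll rose by 2.92 ± 0.17 with the MEK inhibitor (edgeR adjusted p = 1.4e-10) and by 4.40 ± 0.15 with BMP2+MEKi (edgeR adjusted p = 3.2e-15), of which 1.48 ± 0.10 separated the 2 treated groups (edgeR adjusted p = 3.4e-10). Rosiglitazone raised it by 2.06 ± 0.09 (edgeR adjusted p = 1.8e-13). In MTΔECad controls it was higher than in Py2T-LT controls by 5.20 ± 0.14 (edgeR adjusted p = 1.4e-17), the largest difference between untreated lines among the 5 members detected in both. Mgll overlaps the antisense gene Gm26588 and further annotated transcripts, which were not analysed here.

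Abhd5 (NCBI Gene 67469, chromosome 9, 122351616 to 122381524, plus strand) encodes the coactivator of adipose triglyceride lipase. Its level was 110 and 109 CPM in Py2T-LT controls, 130 and 124 with the MEK inhibitor, and 124 and 101 with BMP2+MEKi. MTΔECad controls had 150 and 165 CPM and the rosiglitazone libraries 279 and 266. The BMP2+MEKi libraries spread to either side of the controls, whereas both rosiglitazone libraries were above every other library. Abhd5 rose by 0.79 ± 0.09 with rosiglitazone (edgeR adjusted p = 9.5e-07) beside 2.06 to 3.02 for the 3 neutral lipases. It was higher in MTΔECad than in Py2T-LT controls by 0.53 ± 0.09 (edgeR adjusted p = 3.2e-05). Neither MEKi (0.22 ± 0.09, edgeR adjusted p = 0.11) nor BMP2+MEKi (0.04 ± 0.09, edgeR adjusted p = 0.75) passed against control. BMP2+MEKi against MEKi gave -0.18 ± 0.09 (edgeR adjusted p = 0.13), and without BMP2+MEKi replicate 1 this became -0.34 and passed (edgeR adjusted p = 0.01).

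**Figure D2:**
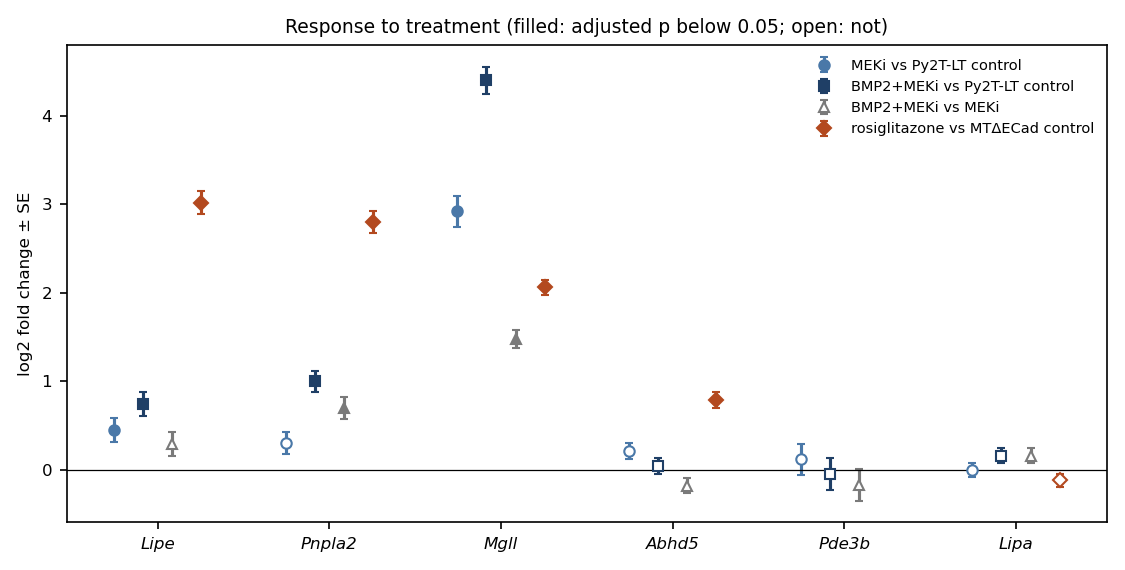
Log2 fold change with its standard error (vertical axis) for each gene (horizontal axis) in the 4 treatment comparisons; filled symbols passed edgeR's test at an adjusted p of 0.05. Mgll has the largest BMP2+MEKi value (4.40) and Lipe the largest rosiglitazone value (3.02), while all Lipa symbols are open and near 0, and Pde3b has no rosiglitazone value because both MTΔECad groups are at 0.

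Counted over the members, 2 of 6 rose with the MEK inhibitor (Lipe and Mgll) and 0 fell. Of all genes tested, 8.98% rose and 7.52% fell in that comparison. The count was 1 without MEKi replicate 1 or without Py2T-LT control replicate 2. BMP2+MEKi raised 3 of 6 against control (Lipe, Pnpla2 and Mgll) and lowered 0, beside 19.1% and 19.4% of all genes. Against MEKi it raised 2 of 6 (Pnpla2 and Mgll), beside 17.9% higher and 19.4% lower over all genes. Rosiglitazone raised 4 of the 5 members detected in MTΔECad cells and lowered 0, beside 7.95% and 5.26% of all genes. The median log2 fold change of the members was 0.26 with MEKi, 0.45 with BMP2+MEKi, 0.23 between these and 2.06 with rosiglitazone (5 members), whereas the medians over all genes were 0.01, 0.00, 0.01 and -0.02.

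The rosiglitazone response in MTΔECad cells was set against the BMP2+MEKi response in Py2T-LT cells by the difference of the log2 fold changes. It was larger by 2.28 ± 0.19 for Lipe (edgeR adjusted p = 1.6e-08), by 1.80 ± 0.17 for Pnpla2 (edgeR adjusted p = 1.6e-06) and by 0.75 ± 0.13 for Abhd5 (edgeR adjusted p = 0.00011). Mgll went the other way, with -2.33 ± 0.19 (edgeR adjusted p = 6.9e-09). For Lipa the difference was -0.28 ± 0.11 and was not called (edgeR adjusted p = 0.077), but without BMP2+MEKi replicate 2 it was -0.38 and passed (edgeR adjusted p = 0.022). In this test 13.3% of all genes had a larger and 11.6% a smaller value. The agents differ between the lines, and Mgll started 5.20 log2 units higher in MTΔECad cells, and its treated level there was 207 ± 13.9 CPM against 28.3 ± 0.973 CPM in Py2T-LT cells, with no overlap of the libraries.

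Ordered by level, the remaining members separated less fully than Mgll. Tests between neighbouring groups in the order used 3 further contrasts, in which 63.4% (rosiglitazone against BMP2+MEKi), 61.6% (MTΔECad control against MEKi) and 62.4% (MTΔECad control against BMP2+MEKi) of all genes were called in either direction. For Lipe only the step from rosiglitazone to BMP2+MEKi passed (2.60 ± 0.12, edgeR adjusted p = 4.5e-13), and the BMP2+MEKi, MEKi, MTΔECad control and Py2T-LT control groups did not differ from their neighbours. For Pnpla2 the first 2 steps passed, from rosiglitazone through BMP2+MEKi to MEKi, with Py2T-LT and MTΔECad controls below. Abhd5 was ordered rosiglitazone, MTΔECad control, MEKi, BMP2+MEKi, Py2T-LT control, and the first 2 steps passed. With RLE size factors in place of TMM the order was kept for 5 of the 6 members, the exception being the lowest 2 groups of Lipa.

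Pde3b (NCBI Gene 18576, chromosome 7, 114415222 to 114537938, plus strand) encodes the phosphodiesterase through which insulin lowers cyclic AMP in fat cells. It stood at 7.95 and 9.81 CPM in Py2T-LT controls, 8.72 and 10.5 with the MEK inhibitor, and 9.31 and 7.91 with BMP2+MEKi. The 3 Py2T-LT groups overlapped and no treatment was called (edgeR adjusted p = 0.73 for MEKi, 0.86 for BMP2+MEKi and 0.5 between them). All 4 MTΔECad libraries had 0 counts for Pde3b, in libraries of the depth given above. Against the floor of 3 counts per library it was at least 44.8-fold lower in MTΔECad than in Py2T-LT controls (edgeR adjusted p = 3.4e-11). A count of 0 in both MTΔECad groups gives no fold for rosiglitazone.

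Genes beside Pde3b were looked at after its values had been seen. On the upstream side, Psma1, a proteasome subunit, had 104 to 127 CPM and Copb1, a coatomer subunit, 256 to 294 CPM in MTΔECad libraries. Rras2, a RAS-related gene further upstream, had 112 to 121 CPM. Spon1, a matrix gene, had 1 count in all MTΔECad libraries together and 227 in the 6 Py2T-LT libraries. Downstream, Calca had 0 and 2 counts, Calcb 14 and 730, and Insc, a gene of spindle orientation, 1484 and 7036. Insc stood at 18.6 to 31.2 CPM in MTΔECad libraries and at 59.6 to 64.9 CPM in Py2T-LT controls. Why Pde3b had no counts in MTΔECad cells was not tested.

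**Figure D3:**
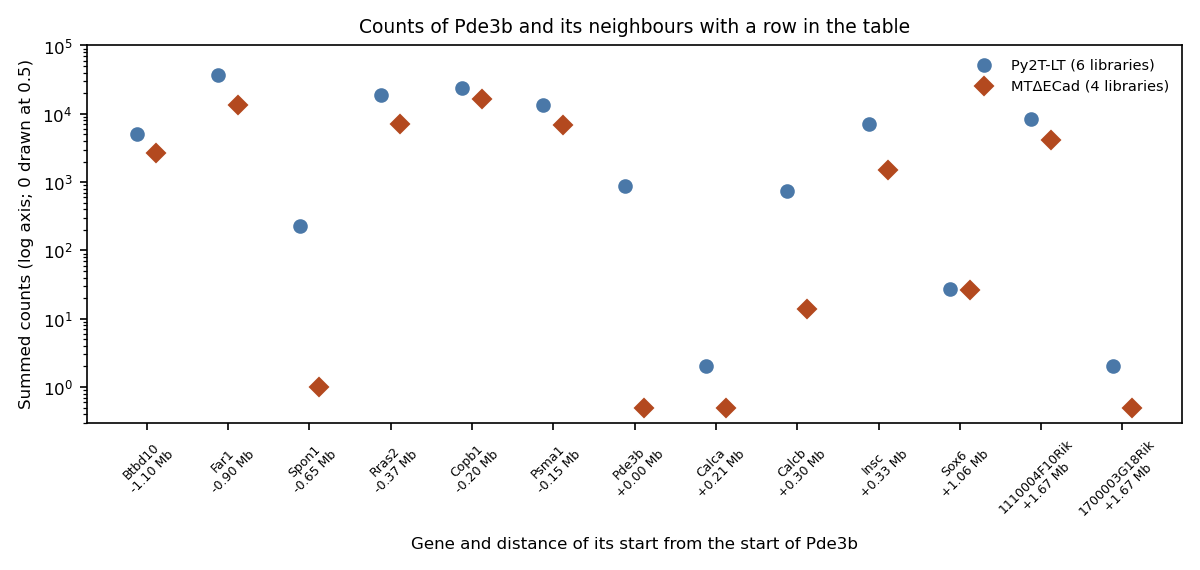
Summed counts (vertical axis, log scale, 0 drawn at 0.5) of Pde3b and its measured neighbours, by distance of each start from that of Pde3b (horizontal axis labels, in Mb). Circles are the 6 Py2T-LT libraries and diamonds the 4 MTΔECad libraries; Pde3b has 888 counts in the former and 0 in the latter, while Psma1 and Copb1 have 6866 and 16439 in MTΔECad cells.

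Lipa (NCBI Gene 16889, chromosome 19, 34492316 to 34527474, minus strand) encodes lysosomal acid lipase. It had 71.3 and 70.8 CPM in Py2T-LT controls, 70.0 and 72.1 with the MEK inhibitor, and 85.4 and 73.7 with BMP2+MEKi. MTΔECad controls stood at 290 and 302 CPM and rosiglitazone libraries at 266 and 279. The lines did not overlap, and the rosiglitazone libraries were both a little below their controls. Lipa was higher in MTΔECad than in Py2T-LT controls by 2.06 ± 0.08 (edgeR adjusted p = 6.3e-15). No treatment was called: the log2 fold changes were 0.00 ± 0.08 for MEKi (edgeR adjusted p = 1), 0.16 ± 0.08 for BMP2+MEKi (edgeR adjusted p = 0.13) and -0.12 ± 0.08 for rosiglitazone (edgeR adjusted p = 0.41). Without BMP2+MEKi replicate 2 the BMP2+MEKi value was 0.27 and passed against control (edgeR adjusted p = 0.031) and against MEKi (edgeR adjusted p = 0.032).

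Between the untreated lines, 3 of 6 members were higher in MTΔECad cells (Mgll, Abhd5 and Lipa) and 1 was lower (Pde3b). Of all genes, 29.3% were higher and 31.7% lower there, with a median log2 difference of -0.03, beside 0.53 over the 5 members detected in both lines. Pnpla2 differed by -0.13 ± 0.13 (edgeR adjusted p = 0.39). The Lipe difference was 0.33 ± 0.14 and was not called (edgeR adjusted p = 0.052), but it was when only the compared groups were fitted (edgeR adjusted p = 0.028).

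Markers of adipocytes were described beside these genes. The summed level of the 7 listed markers was 2.71 to 5.87 CPM in Py2T-LT controls, 171 to 206 with MEKi, 306 to 337 with BMP2+MEKi, 22.5 to 25.9 in MTΔECad controls and 1621 to 1814 after rosiglitazone. Of the 6 tested, 5 rose with MEKi, with BMP2+MEKi and with rosiglitazone, each against its control. The shares of all genes that rose were 8.98%, 19.1% and 7.95%. Between BMP2+MEKi and MEKi 3 rose and 1 fell, which was Cfd (-1.11 ± 0.30, edgeR adjusted p = 0.0055), and Adipoq was not called (-0.20 ± 0.14). Lipa and Pde3b were called in none of these treatments, and Abhd5 only with rosiglitazone. The hormone gene Lep had 0 counts in all Py2T-LT libraries, and Retn had at most 0.134 CPM anywhere. In MTΔECad cells Lep stood at 6.64 CPM in controls and 5.55 CPM after rosiglitazone, and was not called (-0.25 ± 0.22, edgeR adjusted p = 0.57). The part of these markers in the members' levels was not tested. Macrophage markers, of which 5 of 7 had a row, summed to 13.2 to 16.2 CPM in Py2T-LT controls and 16.2 to 16.7 in MTΔECad controls. Of the 4 tested, 1 was higher in MTΔECad controls, Cd68 (0.98 ± 0.21, edgeR adjusted p = 0.00048). Another was lower, Lyz2 (-2.37 ± 0.73, edgeR adjusted p = 0.0083), with 4 counts in MTΔECad controls. The part of these markers in the Lipa level was not tested. Macrophage markers summed to no more than 17.1 CPM in any library, endothelial markers to no more than 1.56 CPM and the 2 skeletal muscle markers with a row to no more than 0.557 CPM. The epithelial and mesenchymal lists each had 6 tested members. Epithelial markers summed to 627 to 677 CPM in Py2T-LT controls and to 219 to 236 with BMP2+MEKi, and 3 of 6 fell while 1 rose. With MEKi 2 of them fell and 0 rose. After rosiglitazone 3 of the 6 epithelial markers rose (Krt8, Krt18 and Epcam) and 0 fell, and their sum was 360 to 393 CPM against 273 to 285 in MTΔECad controls. Mesenchymal markers had 1 rise and 1 fall with MEKi, the same counts with BMP2+MEKi, and 0 of either after rosiglitazone. The part of the epithelial markers in the members' levels was not tested.

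Genes for proteins that hold the lipases back or coat the droplet were counted in the same way. For this list and those that follow, the shares of all genes that rose and fell were 8.98% and 7.52% with MEKi. They were 19.1% and 19.4% with BMP2+MEKi, 17.9% and 19.4% between these, and 7.95% and 5.26% with rosiglitazone. Between the untreated lines 29.3% were higher and 31.7% lower in MTΔECad cells. Of 11 tested lipase inhibitors and droplet gatekeepers, 5 rose and 0 fell with MEKi, 9 and 0 with BMP2+MEKi, 6 and 0 between these, and 7 and 0 with rosiglitazone, with medians of 0.65, 2.70, 0.63 and 1.22 when groups at 0 are set at the floor. Plin3 and Faf2, of this list, were called in no treatment against control, and with rosiglitazone Plin3 had -0.24 ± 0.08 (edgeR adjusted p = 0.051). G0s2, the inhibitor of adipose triglyceride lipase, stood at 1.08 CPM in Py2T-LT controls, 5.79 with MEKi and 13.6 with BMP2+MEKi, rises of 2.40 ± 0.27 and 3.64 ± 0.25. In MTΔECad cells it went from 2 counts in both controls to 7.10 CPM after rosiglitazone, a 108-fold difference whose 95% counting interval runs from 29.5 to 897. Hilpda, another inhibitor of that lipase, rose with BMP2+MEKi (0.40 ± 0.14, edgeR adjusted p = 0.028), beside 0.36 ± 0.14 for MEKi (edgeR adjusted p = 0.088) and 0.16 ± 0.15 for rosiglitazone (edgeR adjusted p = 0.58).

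Among the droplet coats, Plin1, which keeps the product of Abhd5 bound until protein kinase A acts, stood at 0.28, 16.3 and 32.8 CPM in the Py2T-LT groups in that order. It had 0.365 CPM in MTΔECad controls and 255 after rosiglitazone, a rise of 9.43 ± 0.25. Plin2, the coat protein of most cells, rose by 0.64 ± 0.09, 0.83 ± 0.09 and 1.08 ± 0.09 with MEKi, BMP2+MEKi and rosiglitazone. Plin5 was at 0 counts in MTΔECad controls and at least 9.95-fold higher after rosiglitazone, at 1.97 CPM. Cidec, which promotes large droplets, rose by 6.01 ± 0.28, 6.64 ± 0.27 and 8.56 ± 0.25.

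Other lipases had calls in both directions, and their counts were not tested against the shares of all genes given above. Of 12 tested, 2 rose and 0 fell with MEKi (median 0.04), 4 rose and 5 fell with BMP2+MEKi (median 0.12), 2 rose and 2 fell between these (median 0.04), and 3 rose and 1 fell with rosiglitazone (median 0.03). Lpl, the lipase that frees fatty acids from circulating lipoproteins, rose by 0.25 ± 0.08 with MEKi and 0.46 ± 0.08 with BMP2+MEKi and had 0.18 ± 0.08 with rosiglitazone (edgeR adjusted p = 0.2), at 1640 CPM already in MTΔECad controls. Lipg, endothelial lipase, fell by 2.57 ± 0.18 with BMP2+MEKi, from 21.1 to 3.57 CPM.

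Receptors, G proteins and cyclases that raise or lower cyclic AMP, with the clearance receptor Npr3, formed 1 list. Of its 15 tested genes, 2 rose and 4 fell with MEKi (median -0.06), 6 and 4 with BMP2+MEKi (median 0.10), 5 and 4 between these (median -0.01), and 3 and 0 with rosiglitazone (median 0.00 with groups at 0 at the floor). Adrb3, the β-receptor typical of rodent fat cells, had 0 counts in the other groups and at most 0.0688 CPM after rosiglitazone. Adora1, a receptor that lowers cyclic AMP, had 20.8 CPM with BMP2+MEKi against 0.125 CPM in controls (4 counts) and was at 0 counts in MTΔECad controls. The cyclase gene Adcy5 was at 0 counts in MTΔECad controls and at least 48.6-fold higher after rosiglitazone, at 9.64 CPM. Adcy8 rose by 3.16 ± 0.14 with MEKi and was lower again with BMP2+MEKi than with MEKi (-2.42 ± 0.13).

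**Figure D4:**
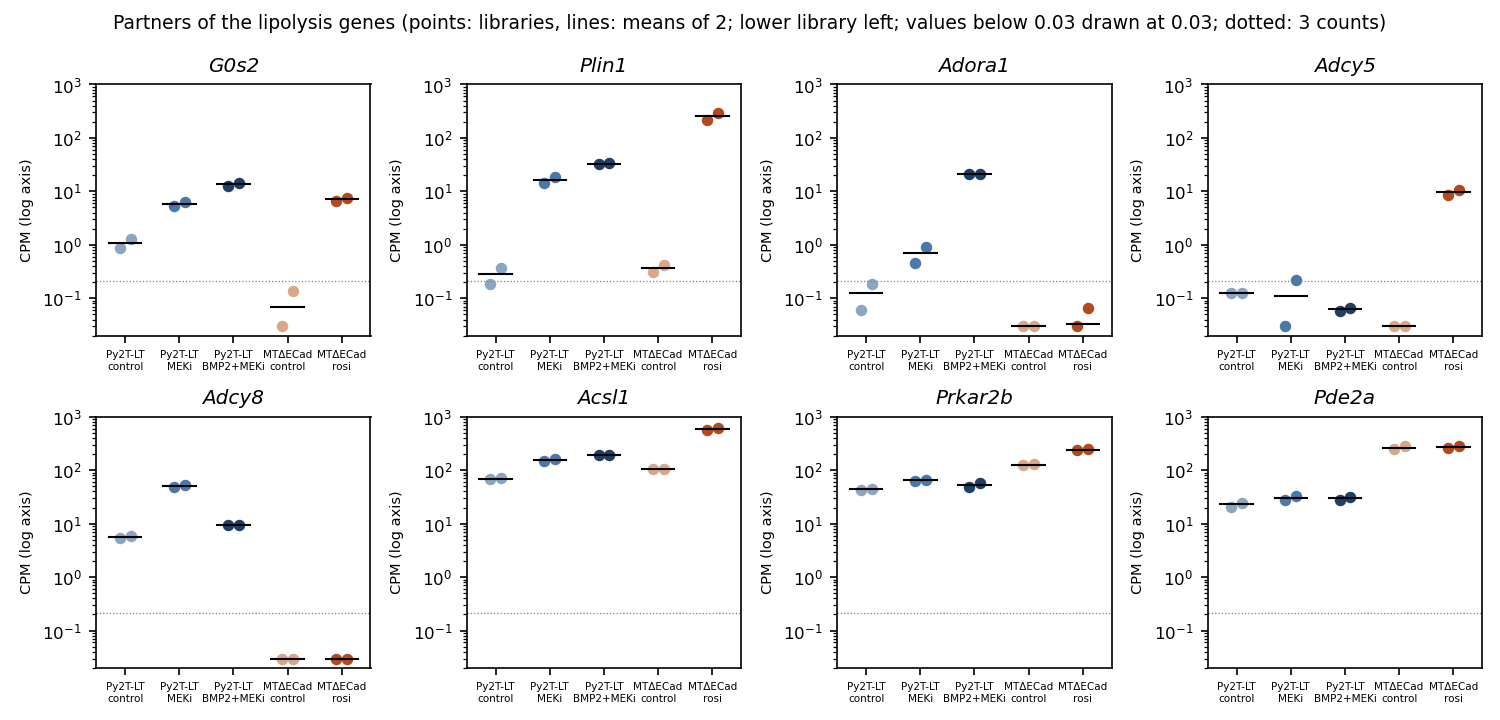
Level in CPM (vertical axis, log scale) of 8 partner genes in the 5 groups (horizontal axis); points are libraries, lines means, and the dotted line is the highest value of 3 counts (0.209 CPM). G0s2 and Plin1 are higher in each treated group than in its control, Adora1 is high with BMP2+MEKi (20.8 CPM), Adcy5 after rosiglitazone (9.64 CPM) and Pde2a in both MTΔECad groups (263 and 269 CPM).

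The protein kinases that cyclic AMP and cyclic GMP activate were a list of 8 genes. With MEKi 1 rose and 2 fell (median 0.14), 1 and 1 with BMP2+MEKi (median 0.10), 1 and 2 between these (median -0.03), and 2 and 1 with rosiglitazone (median 0.20). Prkar2b, the regulatory subunit of protein kinase A prominent in fat, rose by 0.56 ± 0.09, 0.29 ± 0.09 and 0.95 ± 0.08 with MEKi, BMP2+MEKi and rosiglitazone, and was higher in MTΔECad than in Py2T-LT controls by 1.52 ± 0.09. Of 10 other phosphodiesterase genes tested, 3 rose and 2 fell with MEKi (median 0.31), 5 and 3 with BMP2+MEKi (median 0.80), 3 and 3 between these (median 0.06), and 1 and 0 with rosiglitazone (median 0.03), and between the untreated lines 4 were higher and 4 lower in MTΔECad cells (median -0.64). MTΔECad cells, which had no Pde3b count, had 263 CPM of Pde2a in controls against 22.9 in Py2T-LT controls, a difference of 3.52 ± 0.11 (edgeR adjusted p = 3e-16), and more Pde4b (0.97 ± 0.11) and Pde4d (1.15 ± 0.12). Other members of the list were lower there: Pde7a had 54.9 against 126 CPM (-1.20 ± 0.10, edgeR adjusted p = 9e-10), and Pde7b, at 0 counts, was at least 15.6-fold lower. These phosphodiesterases also degrade cyclic AMP, and all but Pde7b were chosen after their values had been seen. Pde3a was not analysed here.

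On the insulin branch, which acts through PDE3B, 1 of 10 genes rose and 1 fell with MEKi (median -0.12), 4 and 1 with BMP2+MEKi (median 0.05), 3 and 0 between these (median 0.16), and 3 and 0 with rosiglitazone (median -0.07). Irs1, Irs2 and Akt2, which pass on the insulin signal, rose by 1.02 ± 0.08, 1.06 ± 0.15 and 0.68 ± 0.08 with rosiglitazone. Those are MTΔECad cells, in which Pde3b had no counts. With BMP2+MEKi, Irs1 (0.56 ± 0.08) and Irs2 (0.38 ± 0.14, edgeR adjusted p = 0.04) also rose, and Akt2 was not called (0.06 ± 0.08, edgeR adjusted p = 0.59). Foxo1, a forkhead factor that insulin restrains, stood between 24.9 and 31.6 CPM on average in the 5 groups and was not called against control in any treatment.

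Carriers of the released products included some of the larger rises. Of 6 genes, 3 rose with MEKi (median 1.25), 5 with BMP2+MEKi (median 2.56) and 5 with rosiglitazone (median 2.03), with 0 falling, and between BMP2+MEKi and MEKi 5 rose and 1 fell (median 0.68). Fabp4, which binds fatty acids and hormone-sensitive lipase, rose by 5.08 ± 0.19, 6.05 ± 0.19 and 6.02 ± 0.16, to 1066 CPM after rosiglitazone. Aqp7, the glycerol channel of fat cells, was at 0 counts in MTΔECad controls and at least 36.5-fold higher after rosiglitazone, at 7.24 CPM. Acsl1, which activates fatty acids, rose by 1.19 ± 0.08, 1.48 ± 0.08 and 2.49 ± 0.08.

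Lysosomal genes, the setting of Lipa, had calls in both directions. Their counts were not tested against the shares of all genes, which were 8.98% and 7.52% with MEKi and 19.1% and 19.4% with BMP2+MEKi. Of 21 tested, 1 rose and 2 fell with MEKi (median 0.01), 5 and 7 with BMP2+MEKi (median -0.08), 5 and 10 between these (median -0.10), and 1 and 4 with rosiglitazone (median -0.15). Between the untreated lines, 10 were higher and 3 lower in MTΔECad cells (median 0.18, against 2.06 for Lipa). Ctsd, a lysosomal protease, rose by 1.94 ± 0.08 with BMP2+MEKi, whereas Ctsl, another lysosomal protease, fell by 1.00 ± 0.08. Tfeb, a regulator of lysosomal genes, was higher in MTΔECad controls by 0.67 ± 0.16 with no treatment call. Npc1, which exports the cholesterol that Lipa frees, had no call against control either, and was lower with BMP2+MEKi than with MEKi (-0.32 ± 0.08, edgeR adjusted p = 0.0035).

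The genes whose log2 CPM profile over the 10 libraries was most like that of each member were listed by Pearson's r, a description over libraries that share lines and treatments. Lipe was closest to Acadm (0.99445), an enzyme of fatty acid oxidation, Pex16 and Steap4. For Pnpla2, Aqp7 (0.98706) and Amacr (0.983) were among the closest. Abhd5 was closest to Sdhd (0.99523), a subunit of succinate dehydrogenase, Adhfe1 and Etfa. Mgll was closest to Cables1 (0.98886), Rassf6 and Atrn, Lipa to Cstf2t (0.99854), Mtmr6 and Fermt2, and Pde3b to Gnasas1 (0.99983), Camk4 and Eya1. Because Pde3b had no counts in MTΔECad libraries and no call among the Py2T-LT groups, its r mainly reflects the contrast of the lines. Among the members detected in both lines, Lipe and Pnpla2 were the most alike pair (0.965) and Pnpla2 and Lipa the least (0.374).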

How the data were processed

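RNA came from 2 independent experiments per group, and libraries were made with a stranded total RNA kit, although poly-A RNA is also named there, per the labels' protocols. The values are whole-number read counts per NCBI gene identifier, as deposited, and reads were aligned with STAR to mm10 per the submitters' processing notes. For the counting tool, its annotation and its use of strand, the sources used here give nothing, so reads of overlapping genes may be divided in an unknown way. Identifiers were matched to RefSeq GRCm38.p6 (18057 genes) or GENCODE (3 genes). The 43 unmatched ones held 0.763% of counts and stayed in the tests.

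Counts were analysed with edgeR 4.0.16 (R 4.3.3): filterByExpr, TMM scaling and 1 quasi-likelihood model with a mean for each of 5 groups, leaving 5 residual degrees of freedom and a common biological coefficient of variation of 7.07%. P-values were Benjamini-Hochberg adjusted over 13149 genes at 0.05. They rest on the spread between the 2 experiments of a group, pooled over all 5 groups of both lines and moderated across genes. Library totals were 14659987 to 17249199 counts. The floor was 3 counts per library, and counting intervals (exact conditional, 95%) and floors cover counting error only. The procedure was tested on simulated data. Promoter windows were read from RefSeq tables.

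The members and lists were chosen with earlier results of these data known. Named genes were the 6 members, 16 fixed partners, up to 4 genes with the largest called treatment change per list, the 3 most correlated genes of each member, and 3 line markers. A few genes that this rule covers are not reported here. Alternatives were RLE size factors, DESeq2 1.42.0, no count filter, a replicate block, only the compared groups, longest transcripts and leaving out each library. Adrb1, Adcy2, Pde3a, Pde11a, Ptprc, Adgre1, Ckm, Myod1 and Myog were not analysed here.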

Additional observations from a re-analysis of the deposited data

How the results depend on the processing

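RLE size factors and DESeq2 changed no member's call or direction. Without a count filter, Pnpla2 with MEKi (0.30), Lipe between BMP2+MEKi and MEKi (0.29) and Lipe between the untreated lines (0.33) passed the test. That fit gave far smaller p-values at like fold changes, as shown for Pnpla2 above, so these passes are not comparable with calls of the main fit. Same-numbered replicates deviated together at r of -0.106 to 0.1 over the group pairs, so no strong shared shift over all genes was seen. Such values cannot tell whether equal numbers mark the same experiment, and the labels do not say. With a replicate block the calls rose from 2 to 3 with MEKi and from 4 to 5 between the lines, through Pnpla2 with MEKi (0.29, edgeR adjusted p = 0.046) and Lipe between the lines (0.33, edgeR adjusted p = 0.044), and no other member's call changed under the pairing. With only the compared groups fitted, Lipe between the lines was 0.33 and passed, and Lipa with MEKi was -0.0073.

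Leaving out 1 library at a time, the members called with MEKi ran from 1 to 2, and those with rosiglitazone stayed at 4. Lipe with MEKi ran from 0.28 to 0.61, between BMP2+MEKi and MEKi from 0.13 to 0.46 (passing without MEKi replicate 1), and between the lines from 0.21 to 0.44, passing without MTΔECad control replicate 1 (edgeR adjusted p = 0.034). Abhd5 with BMP2+MEKi ran from -0.13 to 0.19 against control and from -0.34 to -0.031 against MEKi. Pde3b ran from -0.19 to 0.11 with BMP2+MEKi (0.069 without its replicate 2, 0.11 without control replicate 2) and from -0.025 to 0.28 with MEKi (-0.024 without control replicate 1). Lipa ran from 0.041 to 0.27 with BMP2+MEKi against control, from 0.044 to 0.27 against MEKi, and from -0.023 to 0.021 with MEKi (-0.0066 without control replicate 2). Its difference of responses ran from -0.38 to -0.16. Without BMP2+MEKi replicate 2 both BMP2+MEKi comparisons of Lipa and this difference passed (edgeR adjusted p = 0.031, 0.032 and 0.022). The reversed values are of differences that were not called. With 1 library in an arm, its spread is assumed to match the other groups. For Pde3b in MTΔECad cells and for Mgll in controls, depth sets the limit: 0 counts and 21 to 22 counts per library.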
